A study of Mus musculus with 3 samples.

Results

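Sites on 7 long noncoding RNA genes, Neat1, Meg3, Rian, Airn, Kcnq1ot1, Tug1 and Miat, were examined in a map of RNA contacts of MTR4, the helicase of the nuclear exosome. The genes were taken by name, and a peak was assigned to a gene when its midpoint lay between the gene's RefSeq start and end on mm10 (assembly GRCm38.p6). All 7 names were found among the 12727 long noncoding genes of that annotation, and together the genes held 19 of the 15769 peaks. LACE-seq fixes RNA to its bound proteins with ultraviolet light, pulls down 1 protein with an antibody and sequences the ends of the reverse-transcribed RNA fragments. The 3 samples, 1 group, were KIT-positive testis cells sorted at postnatal day 8 from mice labelled Mtr4WT. The ultraviolet dose was 400 mJ for each sample. No mutant, control precipitation or input stood beside them. KIT, the receptor for stem cell factor, marks differentiating spermatogonia, but Leydig and mast cells are also known to carry it.

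The 19 peaks come from 1 list, recorded under replicate 3, which gives a position and a strand sign for each peak and no score, read count or p-value. Each value below therefore lacks a replicate check, the depth behind a peak is unknown, and the level of each RNA in these cells was not measured. The labels do not give the number of animals behind a sample. By peaks alone, markers of differentiating spermatogonia could not be set apart from markers of other testis cells: a peak was found in 5 of 12 spermatogonial, 6 of 12 Sertoli, 8 of 12 Leydig or interstitial and 3 of 8 blood or endothelial markers, against 25.5% of all protein-coding genes. These counts do not allow for gene length; with length and local density, 9 peaks stood against 4.04 expected in the spermatogonial markers, 9 against 3.33 in Sertoli, 10 against 2.78 in Leydig or interstitial and 3 against 4.61 in blood or endothelial markers. Which cells gave the peaks of the 7 genes was not tested.

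MTR4 unwinds nuclear transcripts and passes them to the exosome, through adaptor complexes that recognise short-lived transcripts, unspliced or polyadenylated nuclear RNA and precursors of small RNAs. Long noncoding RNAs that stay in the nucleus are thus among the RNAs it can meet. The 7 genes fall into 3 kinds. Neat1 is the scaffold of paraspeckles, nuclear bodies built on its long isoform, while a short isoform shares its 5′ end. Meg3, Rian, Airn and Kcnq1ot1 come from imprinted regions: Meg3 and Rian are maternally expressed in the region between Dlk1 and Dio3, and Airn and Kcnq1ot1 are paternally expressed antisense RNAs that silence neighbouring genes. Tug1 and Miat are spliced RNAs, and Miat, also called Gomafu, is retained in the nucleus.

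Neat1 carried 7 peaks, Meg3 4, and Rian, Airn, Tug1 and Miat 2 each, while Kcnq1ot1 carried 0. At least 1 peak was thus present in 6 of the 7 genes, against 10.2% of all long noncoding genes. The median length was 30.7 kb for the 7 genes and 8.43 kb for all long noncoding genes. Expressed per length, Neat1 had 3.37 peaks per 10 kb (95% exact Poisson interval 1.35 to 6.94), Tug1 2.21 (0.268 to 8.0), Meg3 1.30 (0.355 to 3.33), Miat 1.27 (0.154 to 4.60), Rian 0.346 (0.0419 to 1.25) and Airn 0.169 (0.0204 to 0.609). The whole list averaged 0.0583 peaks per 10 kb. All neighbours in this order had overlapping intervals. The interval of Neat1 lay above those of Rian and Airn. Intervals cover counting error only. Among all long noncoding genes 27 held at least 4 peaks and 4 at least 7, and Malat1 alone held more than Neat1. All 19 peaks were 20 nt wide, the narrowest width in the list and that of 95.7% of its peaks.

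**Figure D1:**
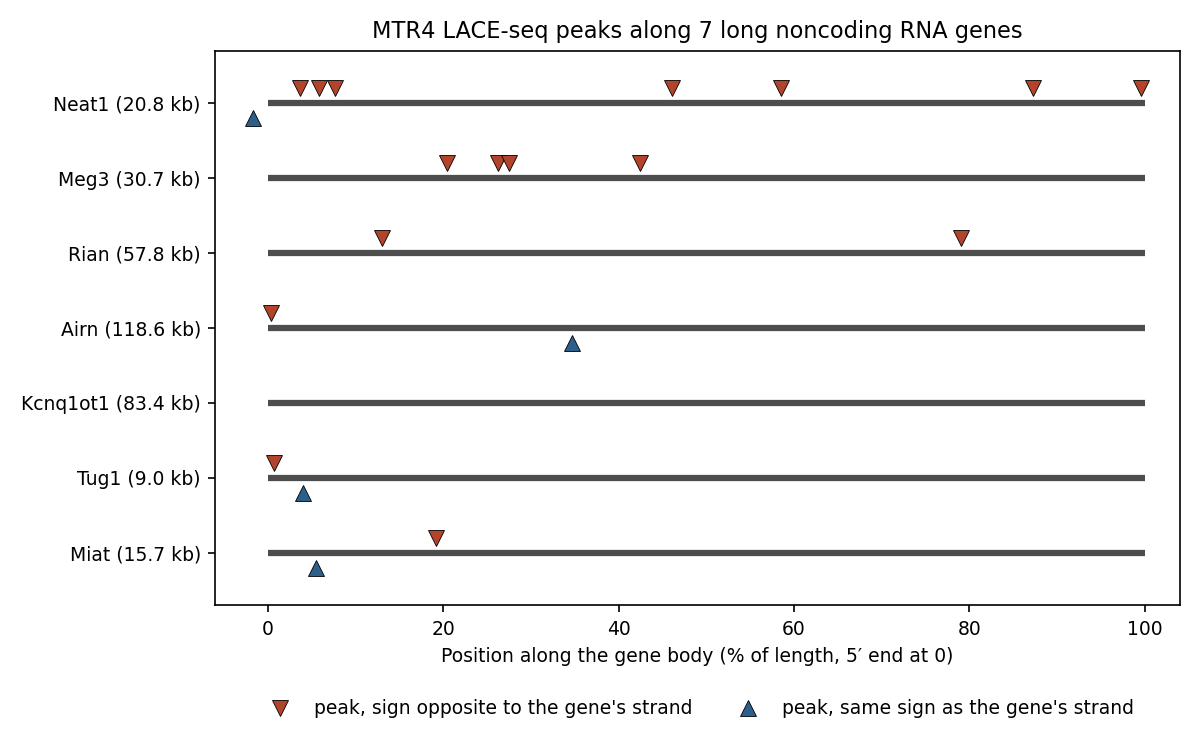
Peaks along the 7 genes, each gene body drawn from its 5′ end at 0% to its 3′ end at 100% of its length, with the length beside the name. Red triangles above a line are peaks whose sign is opposite to the gene's strand and blue triangles below it are peaks of the same sign; the 7 peaks inside Neat1 reach from 3.61% to 99.6% of its length, the 4 of Meg3 lie between 20.4% and 42.5%, and the blue triangle left of Neat1 lies outside the gene.

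Neat1 and Meg3 held more peaks than their length and surroundings gave, and the other 5 genes did not pass that test. The number expected was the gene's length times the peak density of its chromosome or that within 500 kb on either side, whichever was higher, and all 34614 protein-coding and long noncoding genes were tested with a 1-sided exact Poisson test and Benjamini-Hochberg adjustment. Of these genes 0.269% passed at an adjusted p of 0.05, as did 0.196% of the long noncoding ones. In Neat1, 7 peaks stood against 1.02 expected, 6.88-fold (interval 2.76 to 14.2, adjusted exact Poisson p = 0.037). In Meg3, 4 stood against 0.246 expected, 16.3-fold (interval 4.43 to 41.7, adjusted exact Poisson p = 0.047). Both lay close to the threshold. With 100 kb in place of 500 kb both calls were lost, Neat1 at 1.98-fold (adjusted exact Poisson p = 1) and Meg3 at 13.0-fold (adjusted exact Poisson p = 0.090). With 2 Mb Meg3 alone was lost, at 11.6-fold (adjusted exact Poisson p = 0.099). The 7 genes had been chosen with earlier results of this list known, so their share of passing genes, 2 of 7, is a description. Their median, 6.88-fold, is likewise a description. Over all genes tested the median was 0, as most of them held no peak. Of protein-coding genes 25.5% held 1 or more, and of long noncoding genes 10.2%.

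**Figure D2:**
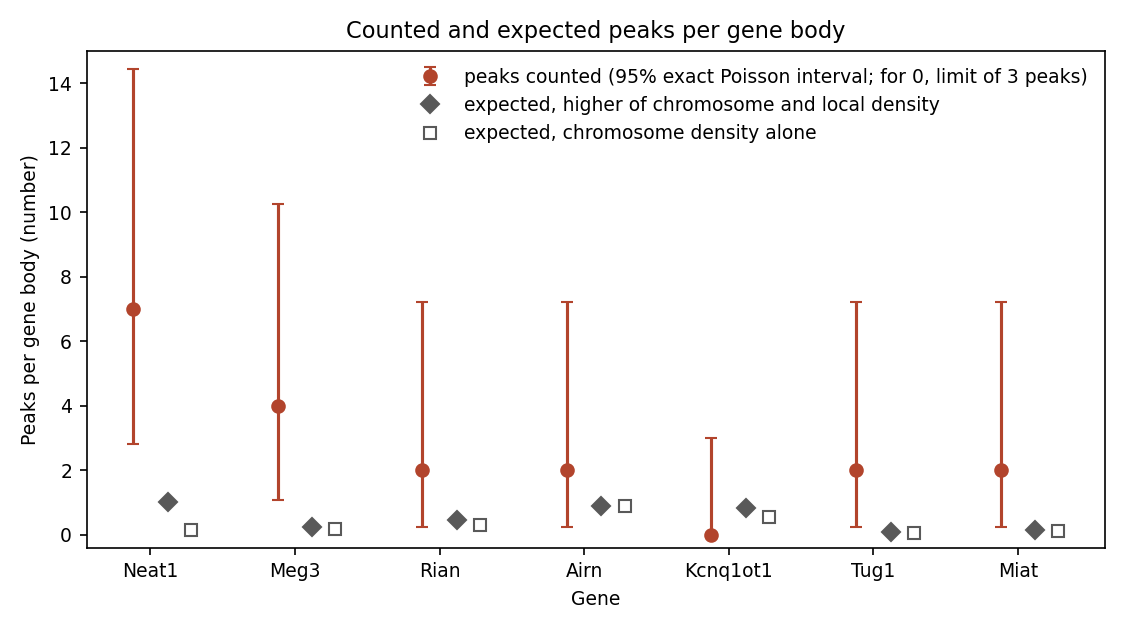
Number of peaks per gene body for the 7 genes (circles, with 95% exact Poisson intervals), beside the number expected from the higher of chromosome and local density (diamonds) and from the chromosome density alone (open squares). The bar of Kcnq1ot1, with 0 peaks, runs to a set limit of 3 peaks in place of an exact interval and covers both expectations. The intervals of Neat1, Meg3, Tug1 and Miat lie above both, and after adjustment over all genes Neat1 and Meg3 passed.

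The sign of a peak was compared with the strand of its gene, since RNA-binding data are read by strand. Transcription starts in the RefSeq promoter table gave a strand for 27025 of the 34614 genes. Of the 19 peaks in the 7 genes, 16 (84.2%, 95% Wilson interval 62.4 to 94.5) had the sign opposite to the gene's strand. All 13 peaks in Neat1, Meg3 and Rian did, and in Airn, Tug1 and Miat 3 did and 3 did not. The Wilson intervals count each peak as independent, whereas the peaks of Neat1, Meg3 and Rian shared 1 sign within each gene. The intervals can therefore be too narrow. Among the 16 is the first peak of Airn, which also lies in Igf2r, on the minus strand, and bears Igf2r's own sign. Peaks in more than 1 protein-coding or long noncoding gene were left out of the comparison sets that follow. Over the rest of the list the sign carried little information: of 7130 peaks that lay in 1 other gene with a strand, 52.9% (51.8 to 54.1) had the opposite sign, and in genes with 1 peak the share was 50.0% (48.2 to 51.7). In other genes that passed the test it was 79.0% (73.9 to 83.3) of 286 peaks in 65 genes without Malat1. All 28 peaks of Malat1 were of the opposite sign. In genes with at least 8 peaks it was 78.9% (72.9 to 83.9), but in genes with 2 to 7 peaks, the number that Neat1, Meg3 and Rian hold, it was 54.0% (52.4 to 55.6). In long noncoding genes past the test without Malat1 it was 62.5% (48.4 to 74.8) of 48 peaks in 12 genes, an interval that includes equal shares. The sign was therefore not used to assign any of the 19 peaks to sense or antisense RNA. Minus signs made up 61.3% of the whole list, so minus-sign peaks in the plus-strand genes Meg3 and Rian also bore the more common sign, whereas the plus-sign peaks of the minus-strand gene Neat1 bore the rarer one.

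**Figure D3:**
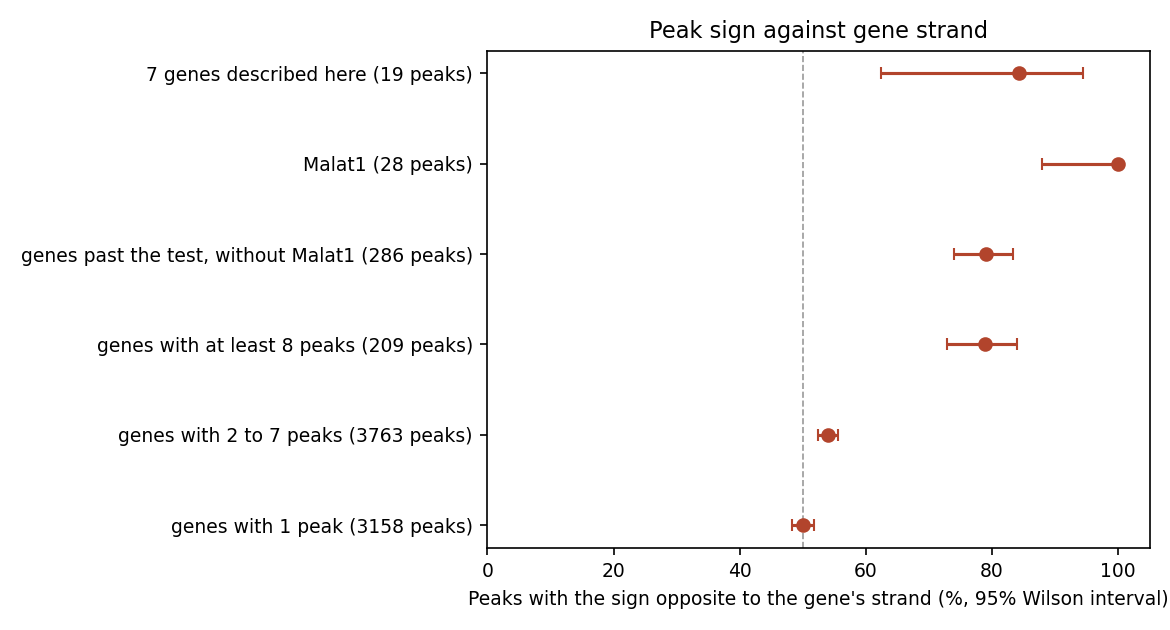
Share of peaks whose sign is opposite to the strand of the gene they lie in, in percent with 95% Wilson intervals. The intervals count each peak as independent, also where peaks of 1 gene share a sign. The dashed line marks 50%. The 7 genes described here stand at 84.2% of 19 peaks, Malat1 at 100% of 28, other genes past the test without Malat1 at 79.0% of 286, genes with 2 to 7 peaks at 54.0% of 3763 and genes with 1 peak at 50.0% of 3158.

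Neat1 lies on chromosome 19 (mm10, 5824708 to 5845480, 20.8 kb) and is transcribed toward Malat1, 22.0 kb away; its strand is general knowledge, since the promoter table did not list it. Of its 7 peaks, 3 lay within 2 kb of the 5′ end, at 750, 1210 and 1590 nt from it. A further pair lay in the middle of the gene, at 9570 and 12150 nt. The last pair lay within 3 kb of the 3′ end, at 18130 and 20690 nt, the second of them 82 nt before the annotated end. The peaks thus ran over 19.9 kb of the 20.8 kb, with gaps of 380 to 7980 nt. The 5′ group falls in the part common to both isoforms, whereas the peaks in the middle and at the 3′ end lie in the part that belongs to the long, paraspeckle-forming RNA; the gene table gives neither exons nor isoforms, and these were not told apart here. No annotated small RNA gene lies inside Neat1.

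All 7 peaks of Neat1 had the plus sign, which is opposite to its strand. The surroundings had the other sign: of the 21 peaks within 500 kb on either side, apart from Malat1, 19 were minus and 2 were plus. A minus-sign peak also lay just outside Neat1, 350 nt upstream of its 5′ end, at 5845821 to 5845840, and was the only peak in the 5493 nt between Neat1 and Frmd8. Over the 27019 other genes with a strand, 430 of the 889 peaks within 1 kb upstream of a start (48.4%) had the same orientation relative to the gene. A further minus-sign peak lay 8.32 kb beyond the 3′ end of Neat1, the only one between it and Malat1.

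The fold of Neat1 depended on its neighbour. Malat1, an abundant nuclear RNA of 6.98 kb, held 28 of the 49 peaks in the flanks of Neat1. Neat1 had 3.37 peaks per 10 kb, against 40.1 in Malat1, a ratio of 11.9 in favour of Malat1. Without the peaks of Malat1 in the flanks, 0.436 peaks were expected in Neat1 and the 7 counted were 16.0-fold above that (adjusted exact Poisson p = 0.00044). With 100 kb on either side the flanks held 34 peaks, 28 of them in Malat1, and Neat1 was 1.98-fold above expectation and short of the threshold (adjusted exact Poisson p = 1), whereas the same flanks without Malat1 gave 11.2-fold (adjusted exact Poisson p = 0.0036). The setting that combines 100 kb with the removal of Malat1 was added after the data had been seen.

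**Figure D4:**
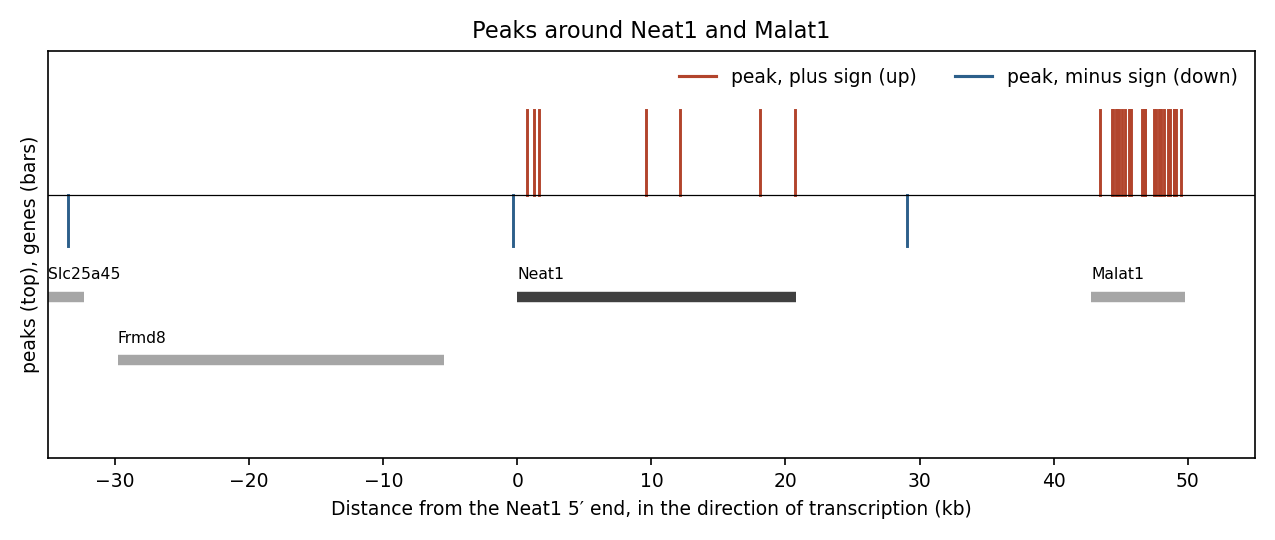
Peaks around Neat1, plotted by distance from its 5′ end in kb, in the direction of transcription; plus-sign peaks point up, minus-sign peaks point down, and bars below are gene bodies. The 7 plus-sign peaks of Neat1 spread over the gene while the 28 of Malat1 are packed into 6.98 kb, and minus-sign peaks lie just upstream of Neat1 and 8.32 kb beyond its 3′ end.

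Meg3 lies on chromosome 12 (109540996 to 109571729, 30.7 kb, plus strand). Its 4 peaks, at 6274, 8074, 8454 and 13054 nt from the 5′ end, fell within 6.78 kb, and the last 17.7 kb of the gene had 0. The promoter table gives Meg3 a second start 4.40 kb after the first, and the first peak lay 1.87 kb after that second start, so all 4 lay downstream of both starts. Meg3 contains 2 miRNA genes, Mir1906-1 and Mir770, and no peak of Meg3 was closer than 2650 nt to either.

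Downstream of Meg3, the same imprinted region continues through Rian and Mirg. From the start of Meg3 to the end of Mirg, 208 kb, the list held 7 peaks, all with the minus sign, opposite to the plus strand of Meg3, Rian and Mirg: 4 in Meg3, 2 in Rian and 1 between Rian and Mirg. The surroundings had the same sign: of the 8 peaks within 500 kb outside this stretch, 7 were minus and 1 was plus. The peak between Rian and Mirg, at 109724901 to 109724920, lay 519 nt from the hairpin of Mir300. Of the 57 miRNA hairpins of this region in the RefSeq table, 54 are on the plus strand, and 3 had a peak midpoint within 1 kb. Mir1906-1, the miRNA gene in Meg3, is not among these 57. Rtl1, the retrotransposon-derived gene antisense to this stretch, and Dlk1, Dio3 and Mirg held 0 peaks.

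**Figure D5:**
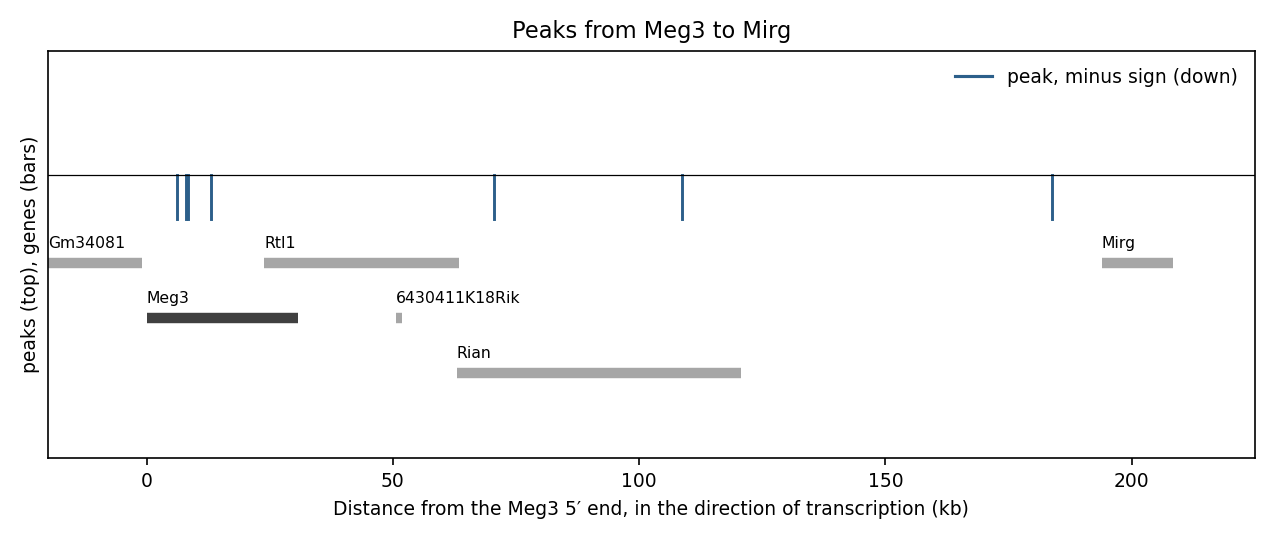
Peaks from Meg3 to Mirg, plotted by distance from the Meg3 5′ end in kb; bars below the peaks are gene bodies. All 7 peaks point down (minus sign): 4 crowd into Meg3 between 6.27 and 13.1 kb, 2 lie in Rian at 70.5 and 109 kb and 1 lies at 184 kb, ahead of Mirg.

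Rian (chromosome 12, 109603945 to 109661716, 57.8 kb, plus strand) is a host of C/D box snoRNAs and miRNAs, with 14 small RNA genes annotated inside it. Both of its peaks touched one of these, the first by 1 nt alone. By midpoint, the rule of the shares below, only the second lay inside one. No share by any overlap is given here. The first, 109611481 to 109611500, ended on the first base of the Mir341 hairpin (109611500 to 109611595) and stood 322 nt before the Mir1188 hairpin. The second, 109649621 to 109649640, lay wholly inside the snoRNA gene DQ267100 (109649617 to 109649687). Of the 1550 peaks in long noncoding gene bodies, 6 (0.387%) had their midpoint within 100 nt of a miRNA gene and 76 (4.90%) inside a small RNA gene. Rian was not called with both peaks (4.33-fold, adjusted exact Poisson p = 1), nor with the peak in DQ267100 left out (2.16-fold, adjusted exact Poisson p = 1). Whether the second peak came from Rian or from the snoRNA cut from it cannot be told apart.

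The miR-341 sequences are shown because they are the only miRNA with a peak on the edge of its precursor in these genes. In the hairpin, from RefSeq (GRCm38.p6, chr12:109611500-109611595, plus strand), capitals mark the mature arms, and in the arms they mark the seed, bases 2 to 8. As listed, the peak covers the 19 bases before the hairpin and its first base, at the 5′ flank of the precursor, and does not reach either arm. Peak edges fall on multiples of 20 nt, so the overlap of 1 nt depends on that grid. The contact cannot be placed more finely than this step. The arms have different seeds.
Mir341 hairpin: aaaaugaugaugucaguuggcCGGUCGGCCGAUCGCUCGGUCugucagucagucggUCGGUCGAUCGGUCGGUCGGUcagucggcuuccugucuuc
mmu-miR-341-5p: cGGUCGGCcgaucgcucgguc
mmu-miR-341-3p: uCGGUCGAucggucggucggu

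Airn (chromosome 17, 12741311 to 12859884, 118.6 kb, plus strand) starts inside Igf2r, the growth factor receptor gene it silences, and runs against it. Its 2 peaks lay 40.7 kb apart. The first, at 439 nt from the 5′ end of Airn, had the sign opposite to Airn and lay inside Igf2r as well, 28.0 kb from the Igf2r start. The second, at 41119 nt, had the plus sign, the same as Airn's strand, and lay outside Igf2r, 12.7 kb upstream of its start. Together they were 2.21-fold of the 0.904 peaks expected for Airn, which is no excess by the test (adjusted exact Poisson p = 1). Igf2r itself held 1 peak, the one it shares with Airn.

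Kcnq1ot1 (chromosome 7, 143213111 to 143296547, 83.4 kb, minus strand), the antisense RNA inside the potassium channel gene Kcnq1, held 0 peaks where 0.834 were expected. For a count of 0 a set limit of 3 peaks, or 0.360 per 10 kb, was used in place of the exact Poisson interval of the other genes. The 0.834 expected lies within that limit, so an absence of contact cannot be read from this list. The nearest peaks lay 67.2 kb upstream of its start and 58.3 kb beyond its 3′ end, which leaves 209 kb without a peak. Such stretches were common: on chromosome 7 the median gap between peaks was 73.5 kb, and 198 of 942 gaps were longer. Kcnq1, over 320 kb, held 4 peaks outside Kcnq1ot1 (1.93-fold, adjusted exact Poisson p = 1).

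Tug1 (chromosome 11, 3639785 to 3648814, 9.03 kb, minus strand) carried its 2 peaks at its very start, in the stretch that faces the divergent gene Morc2a, whose start lies 375 nt from that of Tug1. A plus-sign peak, opposite to the strand of Tug1, covered positions 55 to 74 of the gene. A minus-sign peak, the sign of Tug1's own strand, covered positions 355 to 374, and the rest of Tug1 had 0. Both peaks together were 24.6-fold of the 0.0813 expected but did not pass (interval 2.98 to 88.9, adjusted exact Poisson p = 0.44). Morc2a, which encodes a chromatin ATPase, held 0 peaks.

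The promoter window of Tug1 is shown because the first of these peaks begins 5 nt past its last base. The window is from RefSeq (GRCm38.p6, chr11:3648765-3649064, minus strand), lower case before the start and capitals for the first 50 bases of the gene. It holds 37 CpG dinucleotides, more than 94.4% of the 32851 windows of 300 bases in the table, whose median is 7. Its GC content is 71.3%, against a median of 52.7%.
Tug1 promoter window: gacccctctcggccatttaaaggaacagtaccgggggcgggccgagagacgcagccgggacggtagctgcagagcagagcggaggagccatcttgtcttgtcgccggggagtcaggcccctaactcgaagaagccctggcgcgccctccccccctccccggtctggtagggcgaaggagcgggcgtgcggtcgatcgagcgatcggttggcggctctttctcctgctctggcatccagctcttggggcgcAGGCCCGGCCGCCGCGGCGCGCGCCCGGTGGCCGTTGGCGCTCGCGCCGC

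Miat (chromosome 5, 112213228 to 112228948, 15.7 kb, minus strand) held 2 peaks near its 5′ end. A minus-sign peak, the sign of its own strand, lay 858 nt from the start, and a plus-sign peak, the opposite sign, lay at 3018 nt. They were 14.1-fold of the 0.141 expected and did not pass (interval 1.71 to 51.1, adjusted exact Poisson p = 0.85). The promoter window of Miat holds 25 CpG dinucleotides, that of Kcnq1ot1 9 and that of Airn 3. Rian has 0 there, and the first and second starts of Meg3 have 13 and 1. The table matched 6 of the 7 genes; Neat1 was not among them.

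Neat1, Airn, Tug1 and Miat each had a peak within 1 kb inside their start, 5 of the 19 peaks (26.3%), against 20.4% of the 8187 peaks in the bodies of other genes with a strand. In genes with a strand, 832 of the 1671 peaks within 1 kb inside a start (49.8%) had the opposite sign and 839 did not, so peaks at starts as a whole followed neither strand. The own-sign peaks of Tug1 and Miat are of this kind. Only Neat1 and Rian had peaks beyond the middle of the gene.

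Genes tied to the 7 by function or position were listed with earlier results of these data known. Of 20 genes for paraspeckle proteins, 8 held a peak, against 25.5% of protein-coding genes, and 1 passed, against 0.269% of all genes tested. They held 15 peaks where 5.56 were expected, but an excess of this size was not particular to them. Sertoli markers held 9 against 3.33, Leydig or interstitial markers 10 against 2.78 and spermatogonial markers 9 against 4.04. Blood or endothelial markers held fewer than expected, 3 against 4.61. No such sum over all genes is given here. The paraspeckle gene that passed was Hnrnpk, an RNA-binding protein known from human cells to act on the choice of NEAT1 isoform. Hnrnpk held 5 of the 15 peaks (45.5-fold, adjusted exact Poisson p = 0.00016), 4 of them opposite to its strand. Sfpq, a core paraspeckle protein, held 3, all of the opposite sign, and Hnrnpr 2, and neither passed (adjusted exact Poisson p = 0.33 and 1). The median over the list was 0-fold, as over all genes. Of 20 neighbours in the imprinted regions 6 held a peak, against 25.5% of protein-coding and 10.2% of long noncoding genes. They held 9 in all against 6.25 expected, and the 1 in Igf2r is the one it shares with Airn. Kcnq1 alone held more than 1. Of the 20, 0 passed, against 0.269% of all genes tested, nor did any reach an unadjusted exact Poisson p of 0.05.

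Of 24 other nuclear or imprinted long noncoding RNA names 21 were matched, 13 held a peak, against 10.2% of long noncoding genes, and Malat1 alone passed, against 0.196% of them. Gene length is not allowed for in the count with a peak; the list held 45 peaks, 28 of them in Malat1, where 13.2 were expected. Gas5, a snoRNA host of 3.94 kb, held 2, of which 1 lay in a snoRNA gene (102-fold, adjusted exact Poisson p = 0.065). Dleu2, Pvt1, Snhg14 and Sox2ot also held 2 each, 1 of each sign, and had folds from 0.262 to 4.94. The median over the 21 matched genes of the list was 1.56-fold.

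No likeness over samples could be computed from 1 list, so like genes were taken as long noncoding genes with the same number of peaks and the nearest length. With 7 peaks, as in Neat1, there were 2 others. Neat1 had 7 plus-sign peaks and 0 in small RNA genes, whereas D230017M19Rik, 30.9 kb and on the plus strand, had 7 minus-sign peaks, 5 of them in small RNA genes (18.9-fold, adjusted exact Poisson p = 0.00017). The peaks of both genes were thus all opposite in sign to the strand. In 6530403H02Rik, 432 kb, 2 peaks were plus and 5 minus (2.02-fold). With 4 peaks, as in Meg3, there were 14 others. The nearest in length, Gm34765, Gm39273 and Gm39827, ran from 18.3 to 47.5 kb and had folds of 10.3, 5.27 and 26.5. Gm39827 passed the test (adjusted exact Poisson p = 0.012), and Gm34765 and Gm39273 did not (adjusted exact Poisson p = 0.15 and 0.76). Meg3 had 4 peaks of 1 sign, and each of these 3 had peaks of both signs. The 8 peaks within 500 kb on either side of Meg3 were also all minus. They include the 2 of Rian and the 1 between Rian and Mirg. Of the 8 peaks within 500 kb outside the stretch from Meg3 to Mirg, 7 were minus and 1 was plus. The single sign of Meg3 was thus that of most peaks in its surroundings.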

How the data were processed

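LACE-seq of MTR4 was performed on 3 samples, per the labels. The authors deposited a list of peak positions (chromosome, start, end and sign, with no header) under replicate 3. No separate list for replicates 1 and 2 was analysed here. Cutadapt 1.15, Bowtie 1.0.0 and build mm10 are named in the submitters' processing notes, without their order. The peak caller, duplicate removal and pooling are stated in no label. The name of the deposited list reads as merged, deduplicated and called with Piranha, which was not checked, so the list may pool replicates. All coordinates are multiples of 20 nt, which limits placement; positions are printed 1-based.

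Peaks were joined by midpoint to RefSeq gene bodies (GRCm38.p6) on either strand, with Python 3.11.15, pandas 2.3.3 and scipy 1.17.1. Strand came from the RefSeq promoter table, and for Neat1 from general knowledge. The Poisson test ran across all genes. Flanks exclude the gene itself. Chromosome density was taken over the span that holds annotated genes or peaks. The genes, lists and test were chosen with earlier results of these data known. Named were the 7 genes, genes sharing their peaks, Malat1, list members with at least 2 peaks, and for genes with at least 3 peaks the 3 long noncoding genes nearest in length among those with as many. Genes outside this rule that are named for position or function (Morc2a, Frmd8, Mirg, Rtl1, Dlk1, Dio3, and nearby miRNA genes) were added after the values were seen. Sequences under the peaks themselves were not used here, as no genome was used.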

Additional observations from a re-analysis of the deposited data

How the results depend on the processing

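No paired analysis was possible because the 3 samples form 1 group and 1 list was used. The 19 peaks of the 7 genes kept their number with any overlap of at least 1 nt or with same-sign peaks closer than 100 nt merged. They were 16 among opposite-sign peaks, 18 without peaks in small RNA genes and 20 with 1 kb added at both ends; 0 were wider than 20 nt, so a stricter choice by width leaves none. The number of genes with an excess, 2 as reported (Neat1 and Meg3), was also 2 with the chromosome density alone, with the peaks of Malat1 left out of the flanks, without peaks in small RNA genes and with any overlap. It was 1 (Neat1) with flanks of 2 Mb, with nearby peaks merged, with plus-sign peaks alone, with adjustment over long noncoding genes alone, and in the 2 settings added after seeing the data (100 kb or plus sign, each without Malat1 in the flanks). It was 0 with flanks of 100 kb and with minus-sign peaks alone. Neat1 has 0 minus-sign peaks and Meg3 0 plus-sign peaks, so each had 0-fold and an adjusted exact Poisson p of 1 when the sign it has was removed, for Meg3 also in the added setting of plus sign without Malat1. The adjusted exact Poisson p of Meg3 ran from 0.010 with the chromosome density alone to 0.099 with flanks of 2 Mb, apart from plus-sign peaks alone. With no scores or counts in the list, neither depth nor peak strength could be used.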
